A study of Mus musculus with 2 samples.

Results

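Of the 33 protein-coding genes of the fibroblast growth factor (FGF) system measured in mouse mammary gland, 16 reached a level of 1 TPM (a level scaled for transcript length and library depth) or more in both replicates. The 33 are the secreted FGF ligands, the intracellular FGFs, the receptors Fgfr1 to Fgfr4, the kinase-less receptor Fgfrl1, the Klotho co-receptors Kl and Klb, the adaptor Frs2 and 3 Sprouty genes, chosen by symbol alone from 21474 protein-coding genes among 43346 genes in all. Spry3 was not analysed here. The study sequenced stranded poly(A) RNA, longer than 200 nt and depleted of rRNA, in 2 libraries with paired reads of 76 nt. Both come from mammary gland of C57BL/6J mice, an inbred strain without any listed allele or treatment, aged 8 weeks. Each library is labelled as pooled from male and female littermates, so neither is a single animal and the sexes cannot be told apart. The labels give biological replicate numbers 2 and 1, 1 donor entry for both and no contrast. Spread between the replicates is therefore all that can be set beside a value, and no p-value is given. Summed expected counts (fragments assigned to genes) were 42400470 in replicate 2 and 56323489 in replicate 1.

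FGF ligands signal through receptor tyrosine kinases that carry immunoglobulin (Ig)-like domains outside the cell. Paracrine ligands bind with heparan sulfate as cofactor, endocrine ligands bind with a Klotho protein, and the receptor then phosphorylates the adaptor FRS2 and activates the RAS-ERK cascade, whose output the Sprouty proteins dampen. In the mouse mammary gland, FGF10 from the stroma and the IIIb form of FGFR2 in the epithelium are known for their part in bud formation and ductal growth. The third Ig domain decides which ligands a receptor takes, and its second part comes from either of a pair of alternative exons, IIIb (typical of epithelium) or IIIc (typical of mesenchyme).

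The IIIb exon of Fgfr2, on which the result for that receptor turns, is shown from GENCODE M21 transcripts on mm10, 5′ to 3′ along the transcript. Fgfr2 lies on the minus strand of chromosome 7. The exon is 148 nt long.
Fgfr2 IIIb, chr7:130199758-130199905: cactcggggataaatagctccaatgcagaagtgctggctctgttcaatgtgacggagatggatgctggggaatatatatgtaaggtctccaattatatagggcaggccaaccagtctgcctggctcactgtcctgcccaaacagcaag

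The exon after the pair has a second, shorter form in both Fgfr1, on the plus strand of chromosome 8, and Fgfr2, which leaves out the last 6 bases. The last 30 bases of the long form are shown, with those 6 bases in capitals.
Fgfr1, chr8:25566884-25566913: aagagcatccctctgcgcagacagGTAACA
Fgfr2, chr7:130196172-130196201: aagcgcatccccctgcggagacagGTAACA
The 6 bases are GTAACA in both receptors. They encode the optional residue pair known in FGF receptors as VT, in the juxtamembrane region to which FRS2 binds.

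**Figure D1:**
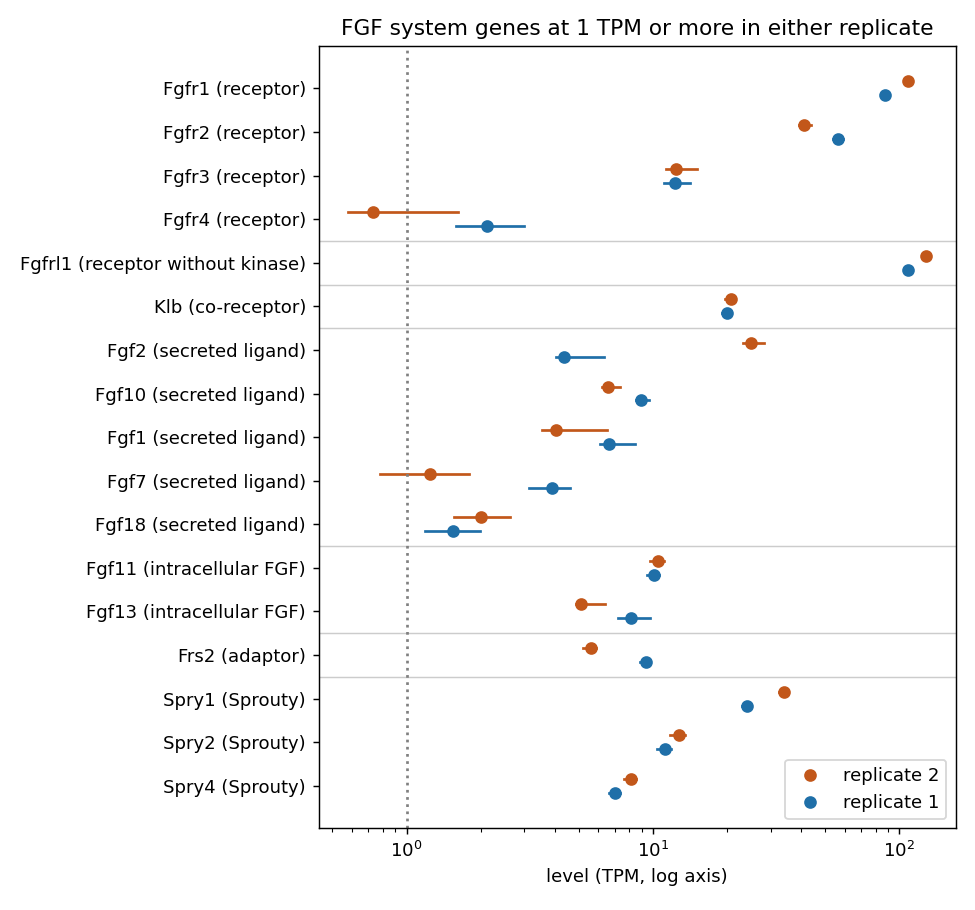
Level in TPM (log axis) of the 17 FGF system genes at 1 TPM or more in either replicate, ordered by role, with replicate 2 above replicate 1. Points are deposited TPM and lines the deposited 95% interval, and the dotted line is 1 TPM. Fgfrl1 and Fgfr1 lie furthest right, and the pair of points is furthest apart for Fgf2.

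The receptors Fgfr1 and Fgfr2 and the kinase-less Fgfrl1 were the most abundant members. Fgfrl1 (chromosome 5, 108692382 to 108706924), whose product binds FGFs but lacks the kinase domain, stood at 127.82 TPM in replicate 2 and 108.34 TPM in replicate 1, a mean of 118 ± 13.8 (SD, n = 2). Fgfr1 (chromosome 8, 25513654 to 25575718) stood at 108.57 TPM in replicate 2 and 87.51 TPM in replicate 1, a mean of 98.0 ± 14.9. Each replicate put Fgfrl1 above Fgfr1, but the ranges of the pair over the replicates overlapped. By level, Fgfrl1 ranked 1115 of 21474 protein-coding genes in replicate 2 and 1044 in replicate 1, and Fgfr1 ranked 1379 in replicate 2 and 1362 in replicate 1.

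Fgfr2 (chromosome 7, 130162451 to 133123350) stood at 41.01 TPM in replicate 2 and 56.35 TPM in replicate 1, a mean of 48.7 ± 10.8. This receptor was below Fgfr1 in each replicate. Fgfr3 (chromosome 5) was at 12.36 TPM in replicate 2 and 12.24 TPM in replicate 1, the smallest gap among the 4 kinase receptors. Fgfr4 (chromosome 13), known best as the bile acid regulating receptor of the liver, was at 0.73 TPM in replicate 2 and 2.13 TPM in replicate 1, and its deposited 95% intervals were 0.576 to 1.62 in replicate 2 and 1.58 to 2.99 in replicate 1. Of the 33 members, Fgfr4 was the 1 that passed 1 TPM in a single replicate. Together the 4 kinase receptors held 162.67 TPM in replicate 2 and 158.23 TPM in replicate 1, which was 37.9% of the summed TPM of all members in replicate 2 and 41.2% in replicate 1, a mean of 39.6% ± 2.32 (SD, n = 2).

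The annotation behind the deposited tables bears on Fgfr2. A transcript model named Fgfr2-217 has 7 exons, 1 of whose introns spans 2908817 bp. It shares 2111 of its 2425 bases with other Fgfr2 transcripts and the other 314 with Ctbp2, a co-repressor gene on the same strand. The deposited estimates gave this model 13.5% of the Fgfr2 expected counts in replicate 2 and 43.2% in replicate 1. The splice junction table, whose longest junction is 2065210 bp, holds no junction of that length, so it gives no read count for the joining of the 2 parts. Without this model, Fgfr2 stood at 35.39 TPM in replicate 2 and 38.99 TPM in replicate 1, a mean of 37.2 ± 2.55. In TPM the gap between the replicates was thus smaller than with it. In expected counts the rest held 2449 in replicate 2 and 2181 in replicate 1. Replicate 2 had more although its library total was smaller. In scaled counts the gap was thus larger without the model than with it, where the log2 ratio was -0.03.

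Among the Klotho co-receptors, Klb (β-Klotho, the partner of the FGF21 and FGF15 receptor complexes, known from adipose tissue and liver) was at 20.72 TPM in replicate 2 and 19.94 TPM in replicate 1. Kl (α-Klotho, the FGF23 co-receptor known from kidney) had 1 fragment (0.01 TPM) in replicate 2 and 21 fragments (0.10 TPM) in replicate 1. The adaptor Frs2 was at 5.61 TPM in replicate 2 and 9.37 TPM in replicate 1.

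Of the 18 secreted ligands, 5 reached 1 TPM in both replicates: Fgf1, Fgf2, Fgf7, Fgf10 and Fgf18. Together the 18 held 40.85 TPM in replicate 2 and 26.98 TPM in replicate 1, and Fgf2 alone made the order of these sums. Without Fgf2 they held 15.77 TPM in replicate 2 and 22.63 TPM in replicate 1. In both replicates the summed ligands stood below the summed kinase receptors.

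Fgf2 (chromosome 3, 37348346 to 37410108), a broadly acting ligand stored in extracellular matrix, was at 25.08 TPM in replicate 2 and 4.35 TPM in replicate 1. By TPM it was the highest secreted ligand in replicate 2, whereas in replicate 1 Fgf10 and Fgf1 stood above it. By fragments it was below Fgf10 in both replicates, at 447 against 788 in replicate 2 and 132 against 1512 in replicate 1. Fgf1, the other member of its subfamily and a ligand of all receptor forms, was at 4.03 TPM in replicate 2 and 6.60 TPM in replicate 1.

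Fgf10 (chromosome 13, 118669791 to 118792115), the stromal ligand of FGFR2-IIIb, was at 6.57 TPM in replicate 2 and 8.98 TPM in replicate 1, from 788 fragments in replicate 2 and 1512 in replicate 1. Its whole estimate was assigned to the transcript Fgf10-201 in both replicates. Fgf7, the keratinocyte growth factor that also binds FGFR2-IIIb, was at 1.24 TPM in replicate 2 and 3.89 TPM in replicate 1, from 30 fragments in replicate 2 and 119 in replicate 1. Most of that level, 91.8% in replicate 2 and 95.3% in replicate 1, was assigned to Fgf7-203, an 853 nt processed transcript. The longest coding model, Fgf7-201 of 2672 nt, had 7.65 fragments in replicate 2 and 0 in replicate 1, and the other coding model, Fgf7-202 of 2287 nt, had 0 in replicate 2 and 16.39 in replicate 1. Fgf18, a ligand known from bone and lung, was at 2.01 TPM in replicate 2 and 1.54 TPM in replicate 1.

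Of the 13 ligands that did not reach 1 TPM in both replicates, 5 had more fragments than the floor of detection in at least 1 replicate, a floor taken as 3 fragments in a library. Fgf16, known from heart and brown fat, had 40 fragments (0.91 TPM) in replicate 2 and 30 (0.48 TPM) in replicate 1. Fgf21, the hormone of liver and fat that needs β-Klotho, had 14 fragments (0.64 TPM) in replicate 2 and 21 (0.68 TPM) in replicate 1. Fgf4 had 5 fragments in replicate 2 and 8 in replicate 1, and Fgf9 had 4 in replicate 2 and 11 in replicate 1. Fgf23, the phosphate hormone of bone, had 8 fragments in replicate 2 and 0 in replicate 1.

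At or under the floor in both replicates were 9 of the 33 members (27.3%), against 23.5% of all protein-coding genes. They were the ligands Fgf3, Fgf5, Fgf6, Fgf8, Fgf15, Fgf17, Fgf20 and Fgf22 and the intracellular Fgf12. Fgf3, Fgf5, Fgf8 and Fgf15 had 0 fragments in both replicates. A count of 0 allows up to 3 fragments, so these genes were not detectable at this depth. Fgf6, known from skeletal muscle, had 0 fragments in replicate 2 and 3 in replicate 1.

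The intracellular FGFs are not secreted and are known as partners of voltage-gated sodium channels. Fgf11 was at 10.51 TPM in replicate 2 and 10.08 TPM in replicate 1, above every secreted ligand in replicate 1. Fgf13 was at 5.10 TPM in replicate 2 and 8.12 TPM in replicate 1, and its transcript Fgf13-201 held 93.1% of that level in replicate 2 and 63.1% in replicate 1. Fgf14 had 26 fragments in replicate 2 and 49 in replicate 1.

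All 3 Sprouty genes measured, whose products are feedback inhibitors of receptor tyrosine kinase signalling, stood above 5 TPM in each replicate. Spry1 (chromosome 3, 37639947 to 37644598) was at 34.15 TPM in replicate 2 and 24.02 TPM in replicate 1, a mean of 29.1 ± 7.16. Spry2 was at 12.78 TPM in replicate 2 and 11.22 TPM in replicate 1. Spry4 was at 8.18 TPM in replicate 2 and 7.03 TPM in replicate 1. The order Spry1, Spry2, Spry4 held in both replicates without overlap.

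The 16 members at 1 TPM or more in both replicates were 48.5% of the 33, against 58.3% of all protein-coding genes. By role, 5 of 18 secreted ligands, 2 of 4 intracellular FGFs, 1 of 2 Klotho genes, 3 of 4 kinase receptors and 3 of 3 Sprouty genes reached the threshold in both, as did Fgfrl1 and Frs2.

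The third Ig domain exons were read from the deposited transcript estimates, in which IsoPct is the percent of a gene's TPM given to each of its transcripts. Exons were assigned to transcripts from GENCODE M21, a later release than the deposited one, and transcript lengths were the same in both releases for 12 of 15 Fgfr1, 25 of 26 Fgfr2 and 10 of 12 Fgfr3 transcripts. Transcripts whose length differs may also differ in exons. Among them are Fgfr1-203 (3259 nt as deposited, 3789 nt in M21), Fgfr1-201 and Fgfr2-211 (3053 nt as deposited, 4311 nt in M21), which are large parts of the shares that follow. Fgfr1 was carried mostly by IIIc transcripts. They held 72.2% of its TPM in replicate 2 and 58.7% in replicate 1, against 11.0% in replicate 2 and 9.18% in replicate 1 for IIIb transcripts. Of the transcripts with 1 of the pair, IIIc took 86.7% in replicate 2 and 86.5% in replicate 1, a mean of 86.6% ± 0.188 (SD, n = 2). Over transcripts of equal length in both releases, IIIc took 83.4% in replicate 2 and 57.2% in replicate 1.

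Fgfr2 had the opposite order over all its transcripts. IIIb took 83.5% in replicate 2 and 85.5% in replicate 1 of the Fgfr2 transcripts with 1 of the pair, a mean of 84.5% ± 1.40. This share rests on Fgfr2-211, which held 13.60 of 14.56 IIIb TPM in replicate 2 and 7.20 of 9.23 IIIb TPM in replicate 1. Over transcripts of equal length in both releases, which leaves it out, IIIb took 25% in replicate 2 and 56.4% in replicate 1, so no order of the pair held in both replicates. Transcripts with either exon were the smaller part of the gene's TPM. Transcripts with neither exon held 57.5% of the Fgfr2 TPM in replicate 2 and 80.9% in replicate 1. In expected counts, which are not divided by length, the same transcripts held 43.5% in replicate 2 and 67.0% in replicate 1.

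Fgfr3 differed between the replicates. Its IIIb share was 42.4% in replicate 2 and 67.8% in replicate 1, a mean of 55.1% ± 18.0, so no order of the pair held in both replicates. The IIIb estimate itself was close, at 2.70 TPM in replicate 2 and 2.95 TPM in replicate 1, and the IIIc estimate was 3.67 TPM in replicate 2 and 1.40 TPM in replicate 1.

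**Figure D2:**
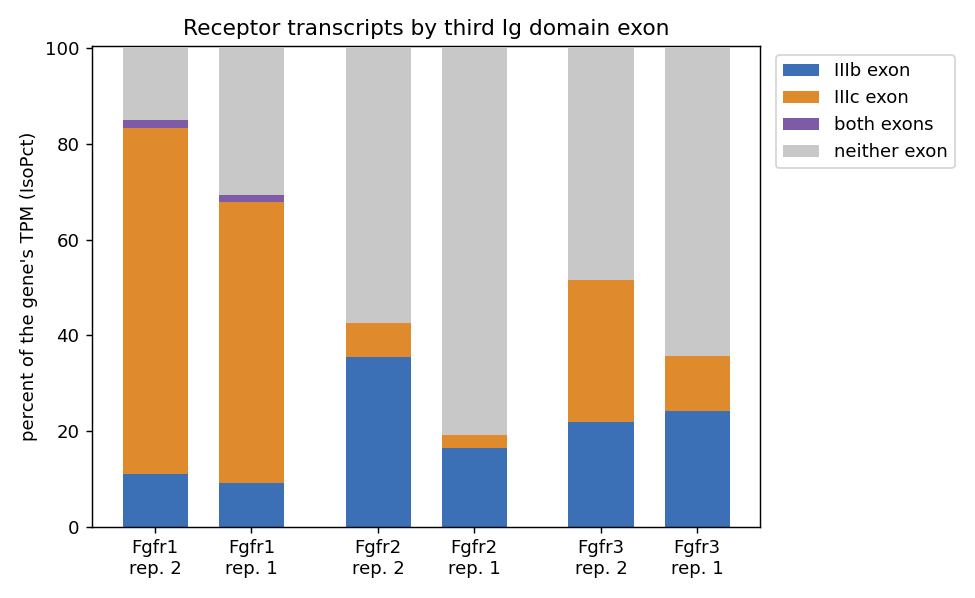
Percent of each receptor gene's TPM in transcripts with the IIIb exon, the IIIc exon, both or neither, for replicate 2 (left bar) and replicate 1 (right bar) of Fgfr1, Fgfr2 and Fgfr3. IIIc fills most of the Fgfr1 bars, IIIb most of the part of the Fgfr2 bars that holds either exon, and the grey part is largest in Fgfr2.

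Reads that span splice junctions gave a count of the same choice that does not use transcript estimates. The deposited junction table is on mm9 and pools the series, so it has no value per replicate. Its junctions were matched to annotated introns by intron length at 1 constant offset per gene, which placed 26 of 31 introns of Fgfr1, 22 of 32 of Fgfr2 and 21 of 26 of Fgfr3. At Fgfr1, 24 reads joined the upstream exon to IIIb and 16 joined IIIb to the downstream exon, against 162 and 274 reads for IIIc. IIIc thus had 91.6% of the junction reads, with an exact Clopper-Pearson 95% interval of 88.7% to 93.9% that covers counting error only.

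At Fgfr2, IIIb had 46 reads on its upstream side and 145 on its downstream side, and IIIc had 9 and 11. IIIb thus had 90.5% of the reads (85.7% to 94.1%). Fgfr3 stood near an even division, with 48.7% IIIb (37.0% to 60.4%). At Fgfr2 no read joined the upstream exon directly to the downstream one at the annotated sites. That junction is not annotated in Fgfr1 or Fgfr3, so it was not counted there.

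The optional 6 bases GTAACA shown above were read from the same junctions, a comparison chosen after its values were seen. Reads of the long form numbered 291 against 57 of the short form in Fgfr1, or 83.6% long (79.3% to 87.4%). In Fgfr2 they numbered 138 against 32, or 81.2% long (74.5% to 86.8%). The long Fgfr2 junction is listed 1 base away from the annotated intron with the same intron length, and junctions of equal length within 2 bases were counted as the annotated one. The long Fgfr1 junction is listed both at the annotated intron and 1 base away, and its 291 reads are the sum. Transcript estimates gave the long form of Fgfr2 82.5% in replicate 2 and 82.9% in replicate 1, and 54.3% in replicate 2 and 56.6% in replicate 1 without Fgfr2-211. For Fgfr1 they gave 98.3% in each replicate, higher than the junction reads, and in that gene 1 annotated transcript alone has the short form.

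A cassette exon of 267 nt near the start of Fgfr1 and Fgfr2 encodes the first Ig domain, which reduces the affinity of the receptor for its ligands. This comparison was chosen after its values were seen. Among Fgfr1 transcripts that span this region, those with the first Ig exon took 71.2% in replicate 2 and 29.4% in replicate 1, a mean of 50.3% ± 29.5. Over Fgfr1 transcripts of equal length in both releases, which leaves out Fgfr1-201 and Fgfr1-203, they took 83.4% in replicate 2 and 57.2% in replicate 1. Among Fgfr2 transcripts that span the region, those with the exon took 20.7% in replicate 2 and 22.3% in replicate 1. In replicate 2 all of this, 4.56 TPM, was Fgfr2-226, a nonsense-mediated decay transcript with neither the IIIb nor the IIIc exon. Over protein-coding transcripts the Fgfr2 share was 0% in replicate 2 and 14.5% in replicate 1, and without Fgfr2-211 it was 54.3% in replicate 2 and 56.6% in replicate 1. Junction reads pooled over the series gave 69.7% with the exon in Fgfr1 (64.1% to 74.9%, from 220 reads into it, 190 out of it and 89 past it) and 22.8% in Fgfr2 (16.2% to 30.5%, from 28, 38 and 112 reads). The estimates of both genes thus depended on the transcripts taken in. The junction reads put the forms with the first Ig exon ahead in Fgfr1 and those without it ahead in Fgfr2.

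**Figure D3:**
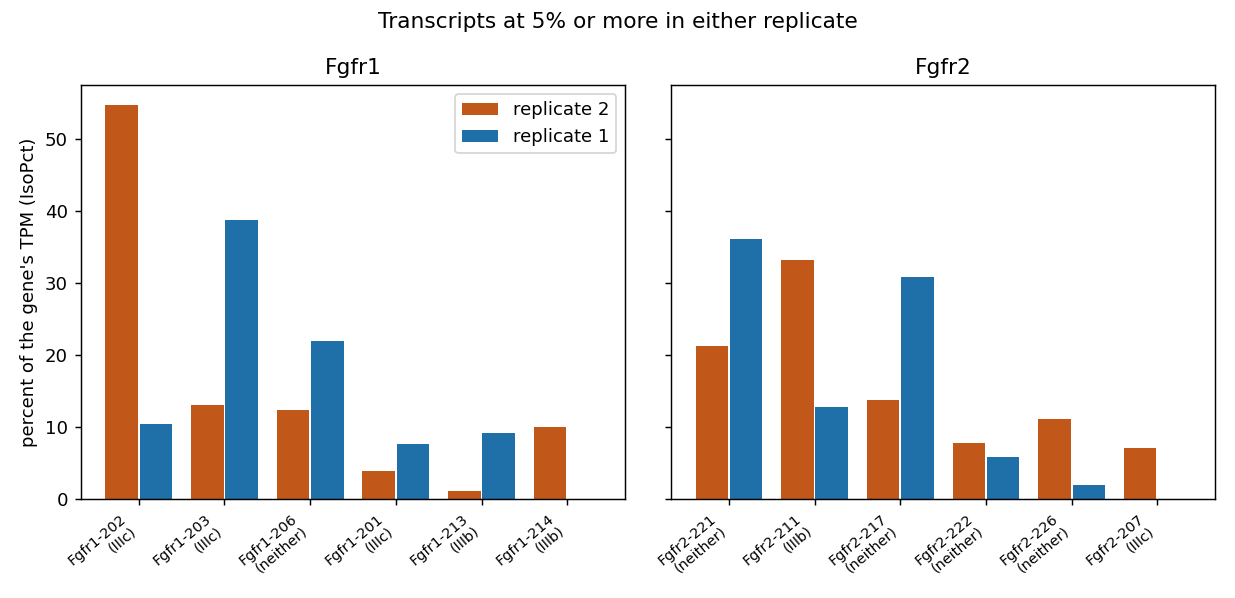
Percent of gene TPM (IsoPct) of the 6 Fgfr1 and 6 Fgfr2 transcripts at 5% or more in either replicate, replicate 2 left of replicate 1, with the third Ig domain exon of each in brackets. Fgfr1-202 is the tallest bar in replicate 2 and Fgfr1-203 the tallest Fgfr1 bar in replicate 1.

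The leading Fgfr1 transcript was not the same in the replicates. Fgfr1-202, a IIIc transcript with the first Ig exon, held 54.7% in replicate 2 and 10.4% in replicate 1. Fgfr1-203, a IIIc transcript without it, held 13.0% in replicate 2 and 38.7% in replicate 1. Both carry the IIIc exon, and the IIIc share of transcripts with 1 of the pair was level while the leading transcript changed. Fgfr1-206, with neither exon, held 12.4% in replicate 2 and 21.9% in replicate 1. The others at 5% or more were Fgfr1-201 (IIIc), at 3.83% in replicate 2 and 7.65% in replicate 1, and the IIIb transcripts Fgfr1-213, at 1.04% in replicate 2 and 9.18% in replicate 1, and Fgfr1-214, at 10.0% in replicate 2 and 0 in replicate 1.

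For Fgfr2, the IIIb transcript Fgfr2-211 led in replicate 2 with 33.2%, and it held 12.8% in replicate 1. The retained-intron transcript Fgfr2-221, of 790 nt, led in replicate 1 with 36.2% and held 21.2% in replicate 2. Fgfr2-217, the model that shares bases with Ctbp2, held 13.7% in replicate 2 and 30.8% in replicate 1. Fgfr2-222 held 7.75% in replicate 2 and 5.81% in replicate 1, Fgfr2-226 (annotated for nonsense-mediated decay) 11.1% in replicate 2 and 1.92% in replicate 1, and Fgfr2-207 (IIIc) 7.03% in replicate 2 and 0 in replicate 1. Of the 26 annotated Fgfr2 transcripts, 12 had an IsoPct above 0 in either replicate.

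Reads were denser at the 3′ ends of all 3 receptor genes. The last 2 donor sites carried 48.9% of the matched junction reads of Fgfr1, 36.5% of those of Fgfr2 and 54.0% of those of Fgfr3. At Fgfr1 the last donor had 2608 reads and the one before it 981, against a median of 161 over the other donors. The third Ig exons lie upstream of these sites, and the part of this unevenness in the transcript estimates was not tested.

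A change of leading transcript was also seen at Fgfrl1. Fgfrl1-201 held 78.7% of its TPM in replicate 2 and 28.0% in replicate 1, and Fgfrl1-202 the rest, while the gene level differed little. In Spry1, Fgfr4, Fgf1 and Fgf2 the leading transcripts were Spry1-201 with 46.7% in replicate 2 and Spry1-203 with 56.2% in replicate 1, Fgfr4-201 with 76.5% in replicate 2 and 55.7% in replicate 1, Fgf1-201 with 59.9% in replicate 2 and 73.5% in replicate 1, and Fgf2-201 with 91.8% in replicate 2 and 67.1% in replicate 1.

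The replicates were then compared by the ratio of expected counts, each scaled by its library total. A member was called beyond 2-fold where its whole 95% Clopper-Pearson interval, which covers counting error only, lay beyond 2-fold. Of the 24 members with more than 3 fragments in at least 1 replicate, 3 were so called (12.5%), against 17.4% of protein-coding genes over the same floor. Fgf2 and Fgf23 were higher in replicate 2, a direction called for 8.26% of those genes, and Kl was higher in replicate 1, a direction called for 9.12%. The members' share was thus not above this background. The median log2 count ratio was -0.03 over members with a finite ratio and -0.09 over protein-coding genes.

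Fgf2 was the 1 member called at a level over 1 TPM. It had 447 fragments in replicate 2 and 132 in replicate 1, a scaled ratio of 4.50 or 2.17 on the log2 scale (1.89 to 2.46). In TPM the log2 ratio was 2.53. The Fgf2 models in the deposited tables are short, with 754 nt for Fgf2-201 and 1240 nt for Fgf2-204 where fragments were assigned, while the longest Fgf2 transcript in GENCODE M21 is 5973 nt. Its level in TPM is therefore one per length of these models. The gene overlaps its antisense neighbour Nudt6, a nucleotide hydrolase gene, over 640 exonic bases in GENCODE M21. How many of these lie in the shorter deposited Fgf2 models was not determined. Nudt6 had 634 fragments in replicate 2 and 595 in replicate 1, with 34.46 TPM in replicate 2 and 18.23 TPM in replicate 1, and its transcript Nudt6-209 was at 20.03 TPM in replicate 2 and 4.09 TPM in replicate 1. The libraries are stranded per the labels, but whether counting used the strand is not given in the sources used here. Reads of the pair in any shared bases therefore cannot be told apart here.

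Kl and Fgf23 were called on few fragments. Kl, with 1 fragment in replicate 2 and 21 in replicate 1, had a log2 ratio of -3.98 (-9.35 to -1.35). Fgf23, with 8 fragments in replicate 2 and 0 in replicate 1, had a lower interval end of 1.18 on the log2 scale. Taking 3 fragments in replicate 1 as the floor, its scaled ratio was 3.54, which leaves out the counting error of the 8 fragments.

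**Figure D4:**
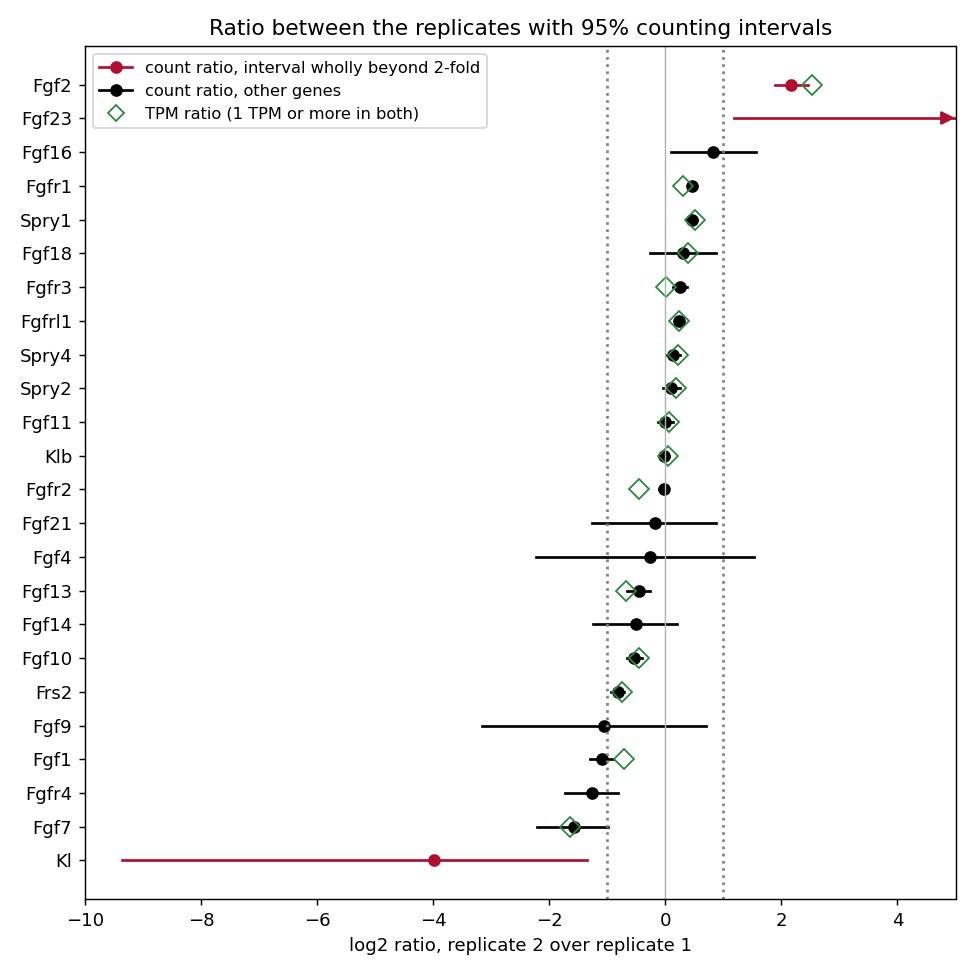
Log2 ratio of replicate 2 over replicate 1 for the 24 members over the floor, from expected counts scaled by library totals (filled points, with 95% counting intervals) and from TPM (open diamonds, for the 16 members at 1 TPM or more in both). Dotted lines mark 2-fold, the arrow marks an interval without an upper end, and Fgf2, Fgf23 and Kl are called. The diamond of Fgfr2 lies to the left of its point, at -0.46 against -0.03.

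Below the call, several members leaned to 1 replicate by more than counting error. Fgf7 had a log2 ratio of -1.58 (-2.21 to -0.99), Fgfr4 of -1.26 (-1.72 to -0.82), Fgf1 of -1.09 (-1.29 to -0.90) and Frs2 of -0.82 (-0.93 to -0.71). Fgfr1 and Spry1 leaned to replicate 2, at 0.47 (0.43 to 0.50) and 0.46 (0.37 to 0.54). Their values with the GC trend removed stand beside that trend. Klb, Fgf11 and Fgfr2 had intervals that included 0, with log2 ratios of -0.03, 0.00 and -0.03. The Fgfr2 counts include those of the model Fgfr2-217, at 382 in replicate 2 and 1657 in replicate 1. For Fgfr2 the counts and TPM differed. Its TPM log2 ratio was -0.46, and its deposited gene length was 2460 nt in replicate 2 and 1790 nt in replicate 1. In 0 of the 16 members at 1 TPM or more in both replicates did the 2 log2 ratios differ by over 0.5, against 8.6% of protein-coding genes at that level.

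Library-wide features moved with the replicates. All 6 skeletal muscle markers (Acta1, Ckm, Mylpf, Tnni2, Myh4 and Myh1) were called higher in replicate 1, with a summed level of 10.2 TPM in replicate 2 and 20774 TPM in replicate 1, and none was at 0. Brown adipocyte markers summed to 523 TPM in replicate 2 and 1598 TPM in replicate 1 (3 of 4 called, all higher in replicate 1), and epidermis markers to 5.36 TPM in replicate 2 and 79.5 TPM in replicate 1 (3 of 4 called, all higher in replicate 1). Luminal epithelial markers summed to 1706 TPM in replicate 2 and 923 TPM in replicate 1 (1 of 7 called, higher in replicate 2), basal markers to 502 TPM in replicate 2 and 643 TPM in replicate 1 (0 of 5), lymphoid markers to 616 TPM in replicate 2 and 302 TPM in replicate 1 (1 of 3, higher in replicate 2), fibroblast markers to 1315 TPM in replicate 2 and 1789 TPM in replicate 1 (2 of 5, both higher in replicate 1), and white adipocyte markers to 4541 TPM in replicate 2 and 4669 TPM in replicate 1 (1 of 5, Plin1, higher in replicate 2 and so against the sum). Endothelial markers summed to 164 TPM in replicate 2 and 178 TPM in replicate 1 (0 of 3) and Schwann cell markers to 164 TPM in replicate 2 and 208 TPM in replicate 1 (1 of 3, higher in replicate 1). The luminal and basal markers that define the labelled tissue were present in both libraries. The part of these cells in the members' ratios was not tested, and in bulk tissue fewer cells of a type and less RNA per cell cannot be told apart.

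The count ratio also moved with GC content. Over all genes with a mean of 1 TPM or more, the median log2 ratio of replicate 2 over replicate 1 was -0.999 in the lowest of 20 GC bins and 1.10 in the highest. Fgf7, at 40.8% GC, and Fgf10, at 41.7%, had ratios below 0, and Fgfr1, at 56.0%, and Spry1, at 56.3%, had ratios above 0. With the trend removed, Fgf7 was at -0.60, Frs2 at -0.25, Fgfr1 at 0.13 and Spry1 at 0.07 (-0.01 to 0.16), each nearer 0 than before. Of the 17 members at 1 TPM or more in either replicate, 8 were nearer 0 than before. The rest were further from it, among them Spry2, at 0.11 before and 0.66 after. The sign changed in 6 of the 17. Fgf10 was at -0.53 before and 0.38 after, Fgfr3 at 0.26 before and -0.39 after, and Fgfrl1 at 0.24 before and -0.86 after. The others were Fgf11, Fgfr2 and Klb, whose intervals had included 0. Fgf2, at 47.9% GC, lay above the trend, and its log2 ratio with the trend removed was 2.62. Fgfr4, at 58.8% GC, lay below it, and with the trend removed its log2 ratio was -1.96 (-2.42 to -1.51), wholly beyond 2-fold.

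**Figure D5:**
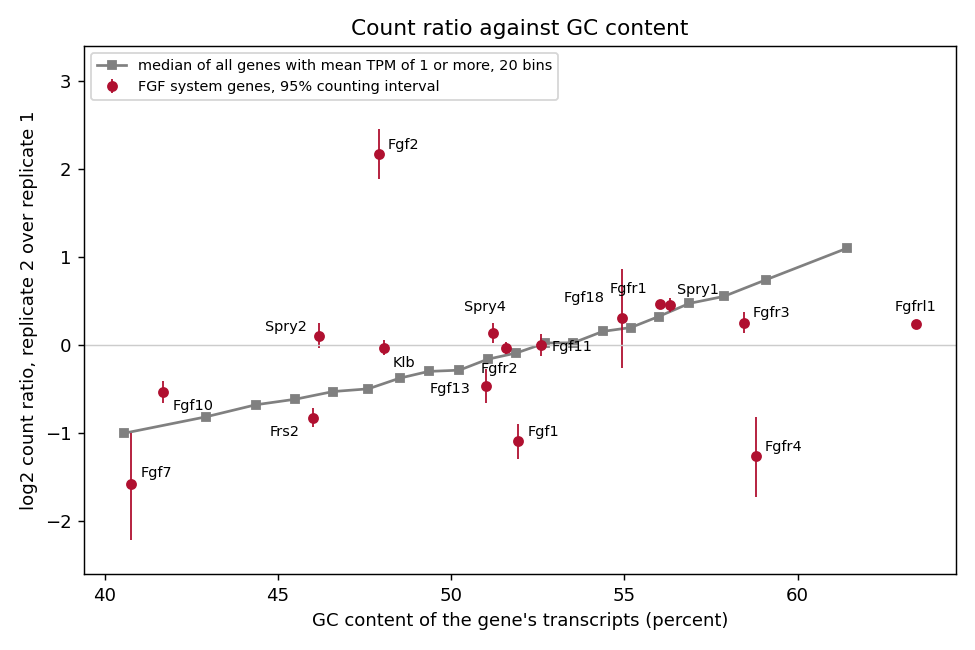
Log2 count ratio of replicate 2 over replicate 1 against transcript GC content (percent) for the 17 members at 1 TPM or more in either replicate, with 95% counting intervals, and the median over all genes in 20 GC bins (grey). Fgf2 lies far above the grey line, and Fgfr4 and Fgf1 lie below it.

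The wider pathway was taken as 45 genes: adaptors and enzymes, heparan sulfate binding partners, feedback genes and targets, and splicing regulators of the receptors. Of these, 43 reached 1 TPM in both replicates, and 5 were called beyond 2-fold, 4 higher in replicate 2 and 1 higher in replicate 1 (11.1%, against 17.4% of protein-coding genes). By mean level the highest were Map2k2 (the kinase MEK2, at 266 TPM in replicate 2 and 112 TPM in replicate 1), Mapk3 (ERK1, at 186 TPM in replicate 2 and 182 TPM in replicate 1), Ptbp1 (an RNA-binding splicing regulator, at 199 TPM in replicate 2 and 120 TPM in replicate 1), Hspg2 (the heparan sulfate proteoglycan perlecan, at 155 TPM in replicate 2 and 44.2 TPM in replicate 1) and Shc1 (an adaptor, at 88.8 TPM in replicate 2 and 83.8 TPM in replicate 1).

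The 4 called higher in replicate 2 were Map2k2, at a log2 count ratio of 1.23, Hspg2, at 1.91, Dusp4 (a MAP kinase phosphatase), at 1.20, and Fgfbp3 (an FGF-binding protein), at 2.79. Fgfbp1, a secreted FGF carrier, was called higher in replicate 1, with 4 fragments in replicate 2 and 64 in replicate 1.

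Of the targets and feedback genes of FGF signalling, 10 of 11 reached 1 TPM in both replicates. Dusp6, an ERK phosphatase induced by FGF signalling, was at 43.2 TPM in replicate 2 and 28.7 TPM in replicate 1. The ETS factors Etv1, Etv4 and Etv5, known FGF targets, were at 2.86, 7.80 and 8.65 TPM in replicate 2 and at 3.71, 4.96 and 10.8 TPM in replicate 1. Spred1, Spred2 and Spred3, relatives of the Sprouty proteins that also inhibit the cascade, were at 4.95, 20.4 and 8.84 TPM in replicate 2 and at 3.76, 10.8 and 6.92 TPM in replicate 1. Il17rd (Sef, a membrane antagonist) was at 3.13 TPM in replicate 2 and 3.56 TPM in replicate 1. Each of these 8 genes was below Spry1 in its replicate except Dusp6.

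Esrp1 and Esrp2, the epithelial splicing factors known to promote the IIIb exon of Fgfr2, are named for that role, outside the naming rule and after their values were seen. Esrp1 was at 6.01 TPM in replicate 2 and 8.55 TPM in replicate 1, and Esrp2 at 22.4 TPM in replicate 2 and 15.6 TPM in replicate 1. Neither was called.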

How the data were processed

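RNA-seq tables of 2 mammary gland libraries, 1 group, were used as the authors deposited them, on mm10 with GENCODE M4 per the text notes deposited beside the tables. Per the file headers, they hold expected counts, TPM and FPKM per gene and transcript, posterior mean TPM, the percent of gene TPM per transcript (IsoPct), and bounds of the TPM interval, treated as a signal deposited by the authors. The deposited junction count table is on mm9, pools the series, and labels 2 parts of each count with no stated meaning, which were not used. Neither an aligner nor a quantifier is given in the sources used here. Entries that name no mouse gene, 26345 in all, were left out of totals.

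The members and the gene lists were chosen with earlier results of these data known, and only descriptions are given. Symbols, coordinates, GC content and transcript structure came from GENCODE M21. Levels are TPM per replicate with mean ± SD (n = 2). For ratios, expected counts were rounded to integers and divided by the summed counts of the library. A count of 3 or fewer was taken as the floor. Intervals are exact Clopper-Pearson intervals for counting error only, since the reads carry no molecular identifiers that the sources used here describe. The alternative exons of the third Ig domain were found as the 2 mutually exclusive exons with a common donor and acceptor, the first in transcription order being IIIb. The sequences of some of these exons are not reported here.

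Named were all members, the 5 highest pathway genes by mean TPM and those beyond 2-fold. Also named were the genes Dusp6, Etv1, Etv4, Etv5, Spred1, Spred2, Spred3 and Il17rd, and Fgfr1 and Fgfr2 transcripts at 5% IsoPct or more. Alternatives were other thresholds, units and scalings, removal of a GC trend, and each replicate left out. Scaling factors came from edgeR 4.0.16 (TMM) and DESeq2 1.42.0 in R 4.3.3. Other tools were Python 3.11.15, numpy 2.4.6, pandas 2.3.3, scipy 1.17.1, Biopython 1.88 and matplotlib 3.10.9. The interval rule was tested on simulated counts that held counting error only, so that test does not cover variation between libraries. Contigs were not used.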

Additional observations from a re-analysis of the deposited data

How the results depend on the processing

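Of 39 alternatives to the main results, 30 left the value within its limits and 9 moved it. For shares the limit was the SD of the 2 replicates, and each replicate alone lies within it by construction. The protein-coding alternative used the same transcripts as the main Fgfr1 IIIc, Fgfr2 IIIb and Fgfr1 first Ig exon shares. These alternatives could not move and are counted among the 30. The same holds for the count beyond 2-fold without the filter on low counts. With 3 or fewer fragments in both replicates, no interval can lie wholly beyond 2-fold. The number of members at 1 TPM or more in both replicates, 16, lay between 14 and 22 under other thresholds and units. The count beyond 2-fold was 3, and 5 with totals without mitochondrial and muscle genes, where Fgf1 and Fgf7 were added; at 1.5-fold it was 7. Under TMM and DESeq2 the same 3 genes were called, and dropping the filter on low counts could add none. The count was also 3 with the GC trend removed, but with Fgfr4 in place of Kl, whose log2 ratio was then -3.63. By the TPM ratio, without an interval and only for members with a mean of 1 TPM or more, 3 were beyond 2-fold. These were Fgf2, Fgf7 and Fgfr4. Fgf23 and Kl, at means of 0.08 and 0.055 TPM, were left out by that level filter. The log2 TPM ratio of Kl was -3.32. These scalings shifted all log2 ratios by 0.07 (TMM), 0.13 (DESeq2) and -0.16 (without mitochondrial and muscle genes). The receptor share of member TPM, 39.6%, was 37.9% without replicate 1 and 41.2% without replicate 2. The Fgfr1 IIIc share of 86.6% was 87.0% from expected counts, 91.6% from junction reads and 70.3% over transcripts of equal length in both annotation releases, and the Fgfr2 IIIb share of 84.5% was 80.6% from expected counts, 82.6% from posterior means, 90.5% from junction reads and 40.7% over transcripts of equal length, which leaves out Fgfr2-211; the cause was not otherwise tested. The junction and equal-length alternatives were chosen after seeing the data. Without a replicate they ran from 86.5% to 86.7% and from 83.5% to 85.5%. The Fgfr1 first Ig exon share of 50.3% was 29.4% without replicate 2 and 71.2% without replicate 1. It was 70.3% over transcripts of equal length and 69.7% from junction reads. No paired analysis was possible because there is 1 group and no test. The calls of Kl and Fgf23 rest on 21 fragments or fewer in a library.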
